A study of Mus musculus with 4 samples.

Results

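Mitochondrially encoded genes are those carried by the organelle's own circular DNA, chromosome M of the mouse genome. They were taken as every gene whose symbol starts with mt-, and the GENCODE mouse annotation has 37 of them, 13 protein-coding, 2 for ribosomal RNA and 22 for transfer RNA. All 37 lie on chromosome M, and RefSeq has 37 genes at the same starts and ends. At least 1 complete gene list held 32 of the 37, among 29652 genes in all.

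The lists come from single-cell RNA sequencing of fetal mouse pancreas (C57BL/6), dissociated and sorted after labelling for EpCAM, a surface protein of epithelia. There was 1 library per group: Setd2 f/f labelled WT and PdxcreSetd2 f/f labelled KO, each at the embryonic ages E13.5 and E15.5 (days after conception). WT and KO therefore share the floxed Setd2 allele, and the KO carries in addition a Cre recombinase driven by Pdx regulatory sequence, which acts in the pancreatic epithelium and nearby gut rather than in blood, vessel or mesenchyme cells that a sort can carry over. Setd2 encodes a methyltransferase for lysine 36 of histone H3. The number of embryos per library is not given in the sources used here.

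A gene in these files is either listed or not listed, with no count, so depth and level are unknown and no p-value, interval or fold change can be given. Complete lists exist for E13.5 WT with 25463 genes, for E13.5 KO with 26341 and for E15.5 KO with 25474. That of E15.5 WT breaks off after 167 complete entries, before the first mitochondrial identifier, so 0 of the 37 genes could be read there. Setd2 was listed in each of the 3 complete lists, which does not check the genotype, since reads from outside the deleted part would also list it. All 13 markers of pancreatic epithelium looked up, such as Epcam, Pdx1, Ptf1a and Ins1, were in each complete list. Of 13 markers of mesenchyme, endothelium, blood, glia and mesothelium, 13 were in each E13.5 list and 10 in E15.5 KO, where Cdh5, Hbb-bh1 and Gata1 were not listed. Listing is common for coding genes: 89.4% of those in any complete list were in all 3, and 5.03% of those in either KO list were in that of E13.5 only. For the 13 markers of other cell types, the drop from 13 in E13.5 KO to 10 in E15.5 KO was a larger share than 5.03%. The epithelial markers stayed at 13. Since a listing holds no count, these marker counts are no measure of how many cells of a type were present. The cell type from which a mitochondrial RNA came cannot be told apart in these lists.

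The mitochondrial genome is transcribed from both strands into long precursors that span most of its length. Transfer RNA genes sit between the messenger and ribosomal RNA genes, and cutting the tRNAs out releases the other RNAs; most mitochondrial messengers then receive a short poly(A) tail. The proteins made are subunits of the respiratory chain and the ATP synthase, which work beside many subunits encoded in the nucleus.

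The results turn on 9 tRNA genes, and their sequences are shown to let their length, base composition and anticodon be compared. They are the 3 that differed between libraries, the 5 that no list held, and mt-Ts1, which was in every complete list and lies next to mt-Td. Sequences are from the GENCODE M21 transcripts (GRCm38), 5′ to 3′ on the gene's own strand and with T for U. Capitals mark the anticodon, found as the middle of a 7-base loop closed by a 5-base stem whose triplet decodes to the amino acid in the gene's name.
mt-Tf (phenylalanine, chrM:1-68, plus strand): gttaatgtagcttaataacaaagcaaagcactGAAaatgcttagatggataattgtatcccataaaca
mt-Th (histidine, chrM:11546-11612, plus strand): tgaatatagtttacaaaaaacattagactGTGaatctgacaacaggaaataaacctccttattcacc
mt-Tl2 (leucine, CUN codons, chrM:11671-11741, plus strand): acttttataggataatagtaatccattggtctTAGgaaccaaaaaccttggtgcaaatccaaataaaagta
mt-Tn (asparagine, chrM:5089-5159, minus strand): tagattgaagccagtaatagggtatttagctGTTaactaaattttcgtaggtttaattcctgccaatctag
mt-Td (aspartate, chrM:6942-7011, plus strand): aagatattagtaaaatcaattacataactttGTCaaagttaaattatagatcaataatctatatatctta
mt-Tk (lysine, chrM:7700-7764, plus strand): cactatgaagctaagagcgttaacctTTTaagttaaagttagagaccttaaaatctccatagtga
mt-Tg (glycine, chrM:9391-9458, plus strand): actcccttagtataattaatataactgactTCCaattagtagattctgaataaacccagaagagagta
mt-Tr (arginine, chrM:9808-9875, plus strand): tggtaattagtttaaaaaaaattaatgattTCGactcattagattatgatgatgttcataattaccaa
mt-Ts1 (serine, UCN codons, chrM:6870-6938, minus strand): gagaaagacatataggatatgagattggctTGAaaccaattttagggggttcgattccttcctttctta

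The 13 protein-coding genes were listed in every complete list, that is in WT and KO at E13.5 and in KO at E15.5. Complex I (NADH dehydrogenase) is represented by mt-Nd1, mt-Nd2, mt-Nd3, mt-Nd4, mt-Nd4l, mt-Nd5 and mt-Nd6, its membrane-embedded subunits. Complex III has mt-Cytb, the cytochrome b that passes electrons on from ubiquinol. Complex IV (cytochrome c oxidase) has mt-Co1, mt-Co2 and mt-Co3, its catalytic core and the subunit beside it. The ATP synthase has mt-Atp6 and mt-Atp8, parts of the membrane sector through which protons pass. These genes run from 204 bases (mt-Atp8) to 1824 bases (mt-Nd5), so neither the shortest nor mt-Nd6, the only coding gene on the minus strand, was missing from a complete list. The overlaps among them make single listings less certain: mt-Atp8 and mt-Atp6 share 43 bases, mt-Nd4l and mt-Nd4 share 7, and mt-Nd5 and mt-Nd6 share 14 on opposite strands. Whether the authors' counting used strand is not given in the sources used here.

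Both ribosomal RNA genes were in each complete list as well. They are mt-Rnr1 (chrM:70-1024), the RNA of the small mitochondrial ribosomal subunit, and mt-Rnr2 (chrM:1094-2675), that of the large subunit. For the 13 coding genes, presence in all 3 lists is to be set beside the same 89.4% of protein-coding genes. The listing gives no amount of mitochondrial RNA per cell, and the rule behind it is unknown.

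**Figure D1:**
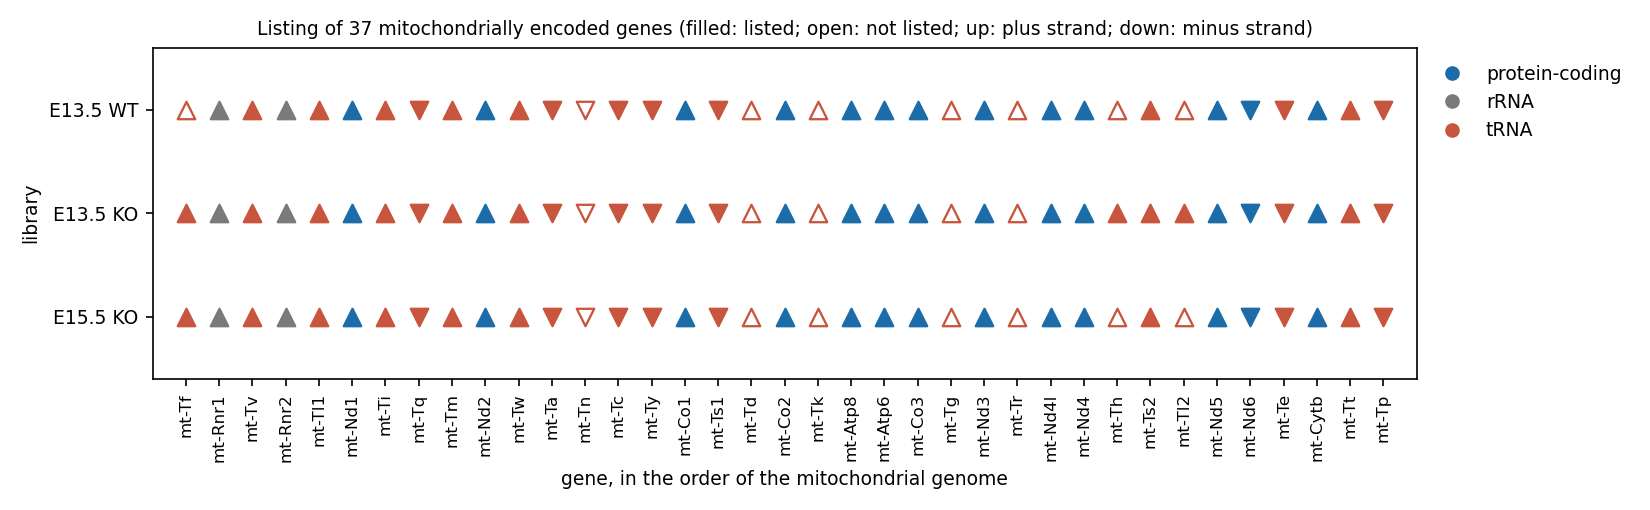
Listing of the 37 genes (x axis, in the order of the mitochondrial genome) in the 3 complete lists (y axis). Filled symbols are listed and open symbols not listed, upward triangles lie on the plus strand and downward ones on the minus strand; all open symbols are tRNA genes, 8 of them in the top row (E13.5 WT), 5 in the middle and 7 in the bottom row.

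The tRNA genes were the 1 class with gaps. E13.5 WT listed 14 of the 22, E13.5 KO 17 and E15.5 KO 15. The genes in all 3 lists numbered 14: mt-Tv (valine), mt-Tl1 (leucine, UUR codons), mt-Ti (isoleucine), mt-Tq (glutamine), mt-Tm (methionine), mt-Tw (tryptophan), mt-Ta (alanine), mt-Tc (cysteine), mt-Ty (tyrosine), mt-Ts1, mt-Ts2 (serine, AGY codons), mt-Te (glutamate), mt-Tt (threonine) and mt-Tp (proline). These are 14 of the 17 tRNA genes in any complete list; 52.7% of all genes in any list that are not protein-coding were in all 3. The tRNA genes of E13.5 WT were those 14 and no others. Some of the 14 overlap neighbours by at most 3 bases: mt-Ti overlaps mt-Nd1 and mt-Tq, mt-Tw overlaps mt-Nd2, and mt-Ts1 overlaps mt-Co1. Single listings are less certain for these genes too, and the part of reads from neighbours was not tested. Of the remaining 8, mt-Tf was in 2 lists, mt-Th and mt-Tl2 were in 1, and mt-Tn, mt-Td, mt-Tk, mt-Tg and mt-Tr were in none.

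At E13.5, KO is set against WT to ask which genes the library with the Pdx-driven Cre listed and the one without it did not, or the reverse. Among mitochondrial genes 29 were in both lists, 3 in KO only and 0 in WT only. The 3 were mt-Tf, mt-Th and mt-Tl2, all tRNA genes of the plus strand. They make 9.38% of the 32 mitochondrial genes in either list, and 9.72% of all 28204 genes in either list were in KO only, so this share was at the background. WT-only genes were 6.61% of all genes and 0% of the mitochondrial ones. Set against genes that are not protein-coding, the class to which tRNA genes belong, the 3 of 17 tRNA genes (17.6%) stood beside a KO-only background of 20.7% and a WT-only background of 12.8%. The E13.5 KO list was also the longest of the complete lists.

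Between the KO libraries, 30 mitochondrial genes were listed at both ages. The earlier age alone held 2 and the later age alone 0; the 2 were mt-Th and mt-Tl2, while mt-Tf was listed at both ages. This is 6.25% of the 32 genes in either list, below the 10.4% of all genes that were in E13.5 KO only; E15.5-only genes made 7.37% of all. Age and library coincide here, and both comparisons use the same E13.5 KO list, so mt-Th and mt-Tl2 appear in both through a single library. Among genes that are not protein-coding, 19.2% were in E13.5 KO only and 15.2% in E15.5 KO only, beside 2 and 0 of the 17 tRNA genes in either list (11.8% and 0%). A listing in E13.5 KO alone among the complete lists was found for 5.31% of all genes and for 10.6% of those that are not protein-coding.

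Of the 37 genes, mt-Tf alone was in both KO lists and not in that of E13.5 WT. It is the first gene of the chromosome M sequence and lies 1 base before mt-Rnr1 on the same strand. The pattern was shared by 3.94% of all genes in any complete list and by 8.01% of those that are not protein-coding. The E15.5 WT list does not reach mt-Tf, so the pattern rests on 1 WT library.

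The tRNA genes mt-Th, mt-Ts2 and mt-Tl2 form an unbroken cluster between mt-Nd4 and mt-Nd5, with 0 bases between mt-Th and mt-Ts2 and a 1-base overlap of mt-Ts2 with mt-Tl2. The middle gene, mt-Ts2, was in all 3 lists although it is the shortest tRNA gene at 59 bases. Its neighbours mt-Th (67 bases) and mt-Tl2 (71 bases) were in E13.5 KO alone. Adjacent genes of 1 cluster thus differed in their listing. The same holds in the minus-strand run mt-Ta, mt-Tn, mt-Tc and mt-Ty between mt-Tw and mt-Co1, where mt-Tn was in no list and the other 3 genes were in every complete list. In the cluster mt-Ti, mt-Tq and mt-Tm between mt-Nd1 and mt-Nd2, all 3 genes were in every complete list.

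The strands differed in their counts, although whether the authors' counting used strand is not given in the sources used here. A listing therefore may not tell the strand of its reads. The minus strand carries 8 tRNA genes, of which 7 were in all 3 lists and 1, mt-Tn, was in none, so this strand showed no difference between libraries. On the plus strand, which also carries 12 of the 13 coding genes and both ribosomal genes, 7 of 14 tRNA genes were in all 3 lists, 3 in some and 4 in none. E13.5 WT held 7 of these 14, E13.5 KO held 10 and E15.5 KO held 8. Where both neighbours lay on the tRNA gene's own strand, 4 of 10 were in all 3 lists, 2 in 1 list and 4 in none. The 4 plus-strand genes in no list all lie in the stretch copied on chromosome 1, described below. Of the 10 plus-strand tRNA genes outside that stretch, 0 were in no list. The 1 minus-strand tRNA gene inside it, mt-Ts1, was in all 3. The parts of strand and of the stretch in the listings were not tested.

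**Figure D2:**
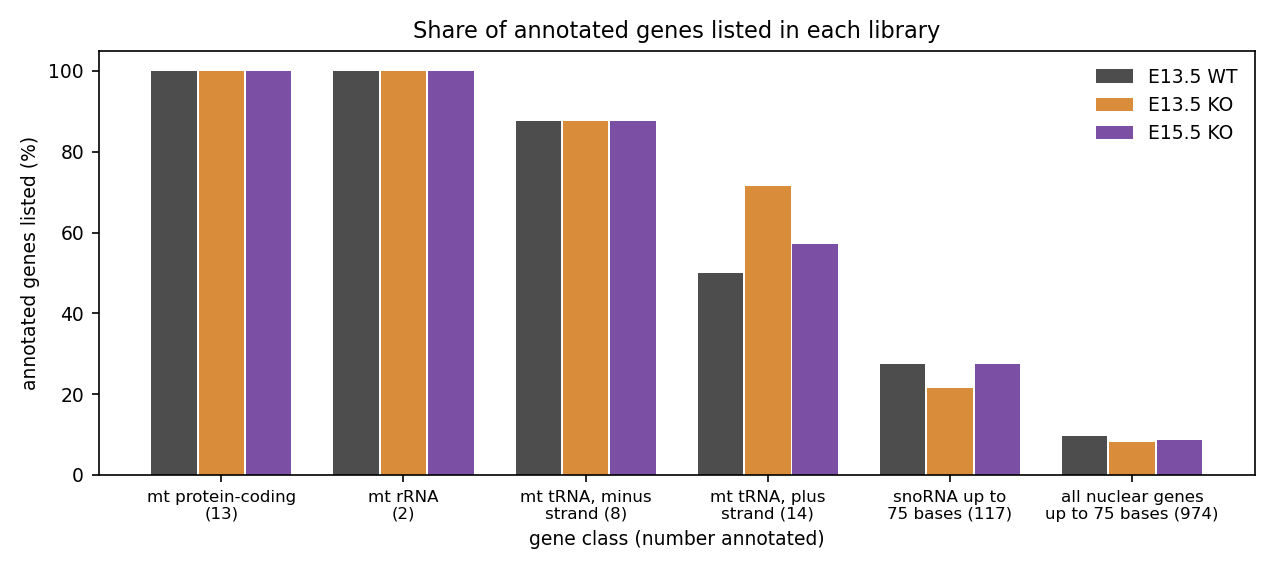
Share of annotated genes listed (y axis, percent, from 0) for each gene class (x axis, number annotated in parentheses), with 1 bar per library. The minus-strand tRNA genes stand at 7 of 8 in each library and the plus-strand ones at 7, 10 and 8 of 14, above the bars for short nuclear genes.

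Short genes of the nucleus were listed much less often than the mitochondrial tRNA genes. The tRNA genes measure 59 to 75 bases, and 974 nuclear genes are annotated at 75 bases or fewer, mostly microRNA and snoRNA genes. Of these, 14.4% were in any complete list and 4.62% in all 3, against 77.3% and 63.6% of the tRNA genes. By library the nuclear share was lowest for E13.5 KO at 8.21%, followed by E15.5 KO at 8.62% and E13.5 WT at 9.55%, whereas E13.5 KO had the most tRNA genes. With the limit raised to 200 bases the order turned, and E13.5 KO had the highest share, 8.39%, beside 8.33% and 7.66%. Small nucleolar RNAs (snoRNAs), which guide the modification of ribosomal RNA and sit in introns of other genes, came nearest, with 30.8% of 117 in any list and 18.8% in all 3. The cause of the gap between these classes and the mitochondrial tRNA genes was not tested.

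The unlisted tRNA genes lie mostly in a stretch of chromosome M that has near-identical copies in the nucleus. Such copies are fragments of mitochondrial DNA that were inserted into chromosomes in evolution. When the mitochondrial genes were aligned to all other annotated transcripts, 7 pseudogenes on chromosome 1 (24611535 to 24616197, GRCm38) matched mt-Co1, mt-Co2, mt-Atp6, mt-Co3, mt-Nd3, mt-Nd4l and mt-Nd4 at 99.7% identity or more. Their order and spacing followed the mitochondrial order, with the paired positions agreeing to within 1 base, over 4653 bases from 6390 to 11042 of chromosome M. Within this stretch lie 5 tRNA genes. On its plus strand are mt-Td, mt-Tk, mt-Tg and mt-Tr, which were in no list, and on its minus strand is mt-Ts1, which was in all 3. Outside the stretch lie 17 tRNA genes, of which 13 were in all 3 lists, 3 in some and 1, mt-Tn, in none. For the plus strand alone, 4 of 4 inside and 0 of 10 outside were in no list. Of those 10 outside, 7 were in all 3 lists. The others, mt-Tf, mt-Th and mt-Tl2, were not listed for E13.5 WT, and mt-Th and mt-Tl2 were not listed for E15.5 KO either. The contrast is therefore weaker within a single list.

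The bases between the chromosome 1 pseudogenes were not analysed here, so whether the tRNA genes themselves are copied there was not read from sequence. A read that fits 2 places equally well is dropped by some counting methods and assigned by others, and which was used is not given in the sources used here. Its part in the missing tRNA listings was not tested. The coding genes of the same stretch were listed in every complete list, as were all 7 of the pseudogenes. The copies cover unequal shares of these genes, 31.3% of mt-Co1, 63.6% of mt-Nd4 and at least 99.0% of the other 5 matched genes, and mt-Atp8 was not among those 7.

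**Figure D3:**
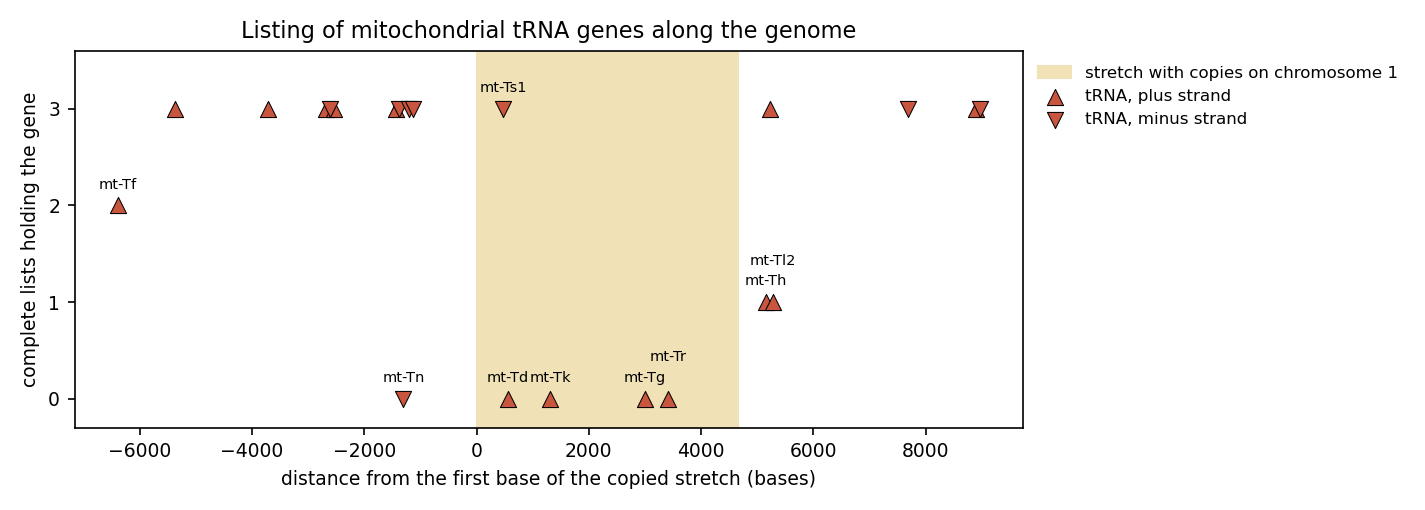
Number of complete lists (y axis) that held each of the 22 tRNA genes, against the distance of its first base from the start of the stretch copied on chromosome 1 (x axis, bases; stretch shaded). Inside the shading the 4 plus-strand genes are at 0 lists and mt-Ts1 is at 3, and outside it mt-Tn is the 1 gene at 0.

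The fifth unlisted gene, mt-Tn, had a match of another kind. It aligned over 71 of its 71 bases at 91.5% identity to a transcript of Cep295, a gene of centriole assembly on chromosome 9 that was in each complete list. That gene also matched mt-Tl1 (93.5% over 62 of 75 bases), mt-Ta (88.9% over 63 of 69) and mt-Ty (89.5% over 57 of 67), and these 3 tRNA genes were in all 3 lists. Matches to Cep295 were thus found for these 3 listed genes and for mt-Tn, and only that of mt-Tn spanned the whole gene. Other nuclear transcripts matched mt-Tf and mt-Tt. mt-Tf, in 2 lists, aligned to Mir6481, which was in no list (82.8% over 64 of 68 bases). mt-Tt, in all 3 lists, aligned to the pseudogene Gm43841, also in all 3 (97.2% over 36 of 67). The part of these matches in the listings was not tested. A second copied stretch, on chromosome 2, has 3 pseudogenes of mt-Nd2, mt-Co1 and mt-Co2 at 95.9% to 97.6% identity. It spans 7 tRNA genes, of which mt-Tn and mt-Td were in no list and 5 were in all 3. On chromosome 4, pseudogenes of mt-Nd5, mt-Nd6 and mt-Cytb lie in the mitochondrial order at 92.4% to 93.6% identity. The tRNA gene between mt-Nd6 and mt-Cytb is mt-Te, which was in all 3 lists. Whether mt-Te itself is copied there was not read from sequence. Elsewhere on chromosome 1, adjacent pseudogenes of mt-Co3, mt-Atp6 and mt-Atp8 had 80.6% to 81.6% identity.

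In all, 27 annotated pseudogenes matched a mitochondrial gene at 80% identity or more over at least 100 bases. E13.5 WT listed 12 of them, E13.5 KO 15 and E15.5 KO 16, and 9 were in none. Of all annotated genes, 45.8% were listed for E13.5 WT and for E15.5 KO and 47.4% for E13.5 KO. Closer copies were in more lists. Of 11 at 95% identity or more, 10 were in all 3 lists and 0 in none, while of 16 below 95%, 2 were in all 3 and 9 in none. Those 10 are the 7 of the chromosome 1 stretch and the 3 of the chromosome 2 stretch, so they are not 10 separate insertions. All 10 are annotated as unprocessed, whereas most copies below 95% are processed ones. Identity, stretch and type cannot be told apart here. Reads of a pseudogene this close to its mitochondrial source cannot be told apart from reads of the source over the identical bases, so listings of these pseudogenes, and of the genes they copy, are uncertain. The 3 in E13.5 KO and not in E13.5 WT were Gm11512 (a copy of part of mt-Co1), Gm4076 and Gm11407 (both of mt-Nd5), 3 of 15 in either list, beside the 20.7% KO-only share for genes that are not protein-coding. Gm4076 was also in E15.5 KO, and 0 were in E13.5 WT only.

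**Figure D4:**
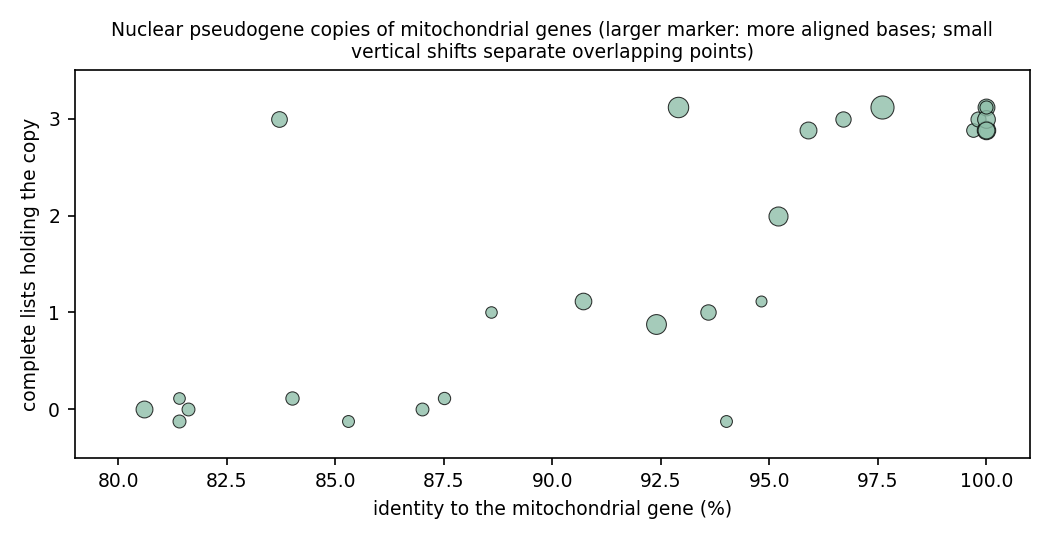
Identity of 27 nuclear pseudogenes to the mitochondrial gene they match (x axis, percent) and the number of complete lists that held each (y axis, with small vertical shifts to separate points; larger markers have more aligned bases). Of the 11 copies at 95% or more 10 are at 3 lists, and the 9 copies at 0 lists are all below 95%.

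The sequences of listed and unlisted tRNA genes were compared by length and base composition. Length had a median of 69.0 bases in the 14 genes of all 3 lists and of 68.0 in the 5 of none. The G and C content had a median of 36.5% (27.5% to 44.9%) in the 14 and of 30.9% (17.1% to 33.8%) in the 5, and mt-Th, mt-Tl2 and mt-Tf fell between 30.9% and 31.3%. The lowest values of all 22 were those of mt-Td at 17.1% and mt-Tr at 22.1%, both unlisted, as the runs of a and t in their sequences show. The highest content among the 8 genes missing from at least 1 list was 33.8%. Of the 14 genes in all 3 lists, 11 were above that value, and the other 3 were mt-Ti at 27.5%, mt-Ts2 at 32.2% and mt-Ta at 33.3%. That value was taken from the missing genes themselves. None of them could lie above it, so the split is a description and no test.

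The codons that each tRNA reads were counted from the sequences of the coding genes. The count is not weighted by messenger amounts, which these lists do not hold, so it does not measure use in translation. The 13 coding genes hold 3790 sense codons, counted with the vertebrate mitochondrial code and with start codons taken as written. mt-Tl2 reads the most, 444 leucine codons, and was in 1 list. mt-Tc reads the fewest, 28 cysteine codons, and was in all 3. Among the unlisted genes the numbers were 212 for mt-Tg, 168 for mt-Tn, 103 for mt-Tk, 74 for mt-Td and 64 for mt-Tr, a median of 103.0, against a median of 156.0 (28 to 373) in the 14 genes of all 3 lists. mt-Tn and mt-Tv read the same number, 168, and were in 0 and in 3 lists. The part of codon use or base composition in the listings was not tested. Each of these tRNAs is the only mitochondrially encoded reader of its codons, and a gene that is not listed is not shown to lack its RNA.

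**Figure D5:**
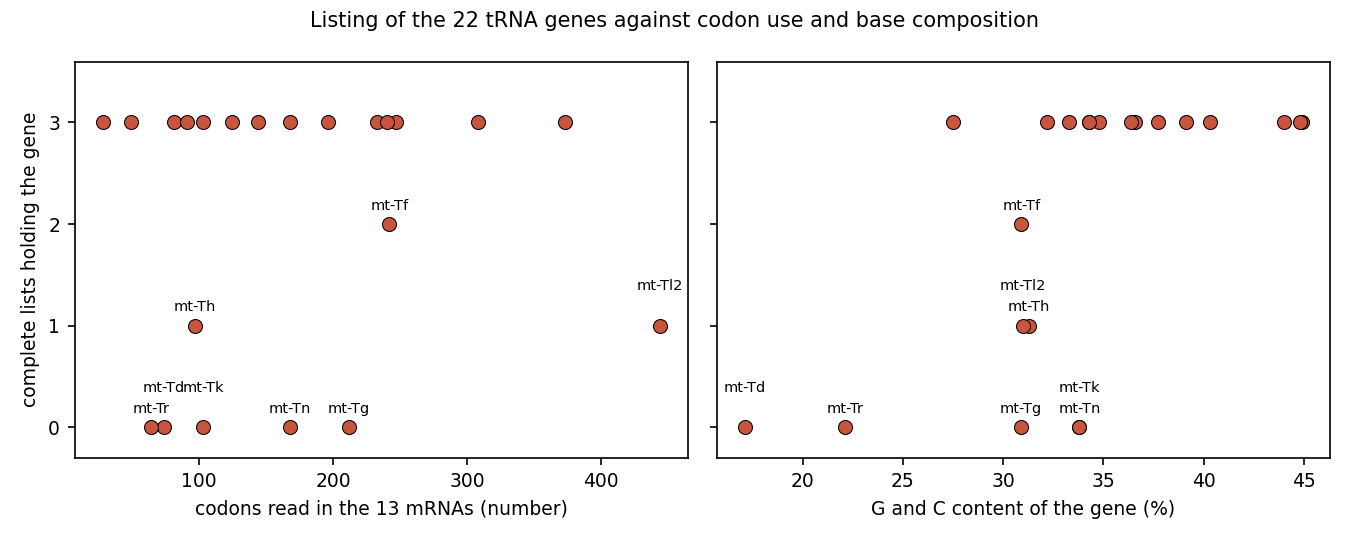
Number of complete lists (y axis) that held each of the 22 tRNA genes, against the codons it reads in the 13 coding genes (left x axis, number) and the G and C content of the gene (right x axis, percent). Genes in fewer than 3 lists are named; mt-Tl2 has the most codons, 444, at 1 list, and mt-Td the lowest content, 17.1%, at 0 lists.

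Of the nuclear genes that work with these RNAs, few were missing from a complete list. They are to be read against the 89.4% of protein-coding genes in any complete list that were in all 3, and nothing particular to these sets was tested. Mitochondria import the enzymes that load amino acids onto their tRNAs, and all 22 synthetase and amidotransferase genes looked up were in each complete list, including Nars2, Rars2, Gars and Kars for the tRNAs of asparagine, arginine, glycine and lysine. All 43 genes of mitochondrial RNA processing, modification and decay were in each as well, among them Elac2 and Trmt10c of the enzymes that cut tRNAs out of the precursors. So were the 20 genes of mitochondrial DNA replication and transcription, such as Tfam and Polrmt. Of 78 mitochondrial ribosomal protein genes 77 were in each list, and Mrpl53 was in none. Mrpl53 overlaps Gm42688, a protein-coding gene on the same strand, which was in all 3 lists.

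Of 85 nuclear genes of oxidative phosphorylation, 85 were listed for E13.5 WT and for E15.5 KO, and 83 for E13.5 KO. The 2 exceptions, Cox8b (chromosome 7, 140898945 to 140900446) and Cox8c (chromosome 12, 102899316 to 102900526), are both forms of subunit VIII of complex IV; Cox8b is known from heart and skeletal muscle and Cox8c from testis. They were in E13.5 WT and E15.5 KO and not in E13.5 KO, the reverse of mt-Th and mt-Tl2. Of protein-coding genes, 2.91% were in E13.5 WT only against E13.5 KO. The form found in most tissues, Cox8a, was in every complete list. Over all these lists together, 245 of 248 genes were in the 3 complete lists. Within reach of the E15.5 WT list were 6 of the 248, Ndufa9, Sdhd, Cox5a, Atp5f1, Top1mt and Tbrg4, and all 6 were listed there.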

How the data were processed

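Each file the authors deposited has no header and 2 columns, a gene identifier and a symbol, and no measured value. The unit is another kind than counts or levels: a gene is listed or not. Per the submitters' processing notes, Seurat (no version given) and mm10 were used; for the aligner, annotation, strand setting, treatment of reads with several matches, filters and the rule for listing a gene, the choice made was not given in the sources used here. Sample titles gave the groups. Identifiers were matched to GENCODE M21 (GRCm38, the assembly of mm10). Every mt- gene is accounted for, and nuclear genes are named where a complete list lacks them or as examples. Copies were sought with BLAST 2.17.0 (word size 16, E-value up to 1e-05) in M21 transcripts. Anticodons needed at least 4 stem pairs of 5 and were found for 19 of 22 tRNA genes. Codons were counted with Biopython 1.88. List counting was tested on simulated lists. With 1 library per group no test was run. Alternatives were other ways to choose members, gene backgrounds and symbol matching. The members and lists were chosen with earlier results of these data known; the searches for nuclear copies, strand, codon and base composition comparisons were added after the listings were seen.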

Additional observations from a re-analysis of the deposited data

How the results depend on the processing

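Choosing members by chromosome and identifier, or by symbol regardless of case, again gave 29 mitochondrial genes for E13.5 WT, 32 for E13.5 KO and 30 for E15.5 KO. The share of genes in 1 list only at E13.5 was 16.3% over all genes, 6.08% over protein-coding genes and 33.5% over the others. Between the KO ages it was 17.8%, 7.57% and 34.4%. The 3 tRNA genes that differed at E13.5 were 17.6% of the 17 tRNA genes in either list, so their reading depends on the background. This was near the 16.3% of all genes and below the 33.5% of genes that are not protein-coding. Against KO-only listing alone, the share of genes that are not protein-coding was 20.7%, close to that of the tRNA genes. Without microRNA genes, 7.9% of short nuclear genes were in all 3 lists against 4.62% with them, and 4.37% with genes up to 200 bases. Matching nuclear genes by their first symbol only gave 243 in all 3 lists against 245. No paired analysis was possible because no group has more than 1 library. Depth is unknown, so a gene that is not listed may have been missed.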
